A study of Mus musculus with 11 samples.

Results

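Expression and splicing of 10 genes of microRNA processing and of the let-7 axis were followed across 4 siRNA knockdowns in N2A (Neuro-2A) cells, which come from a mouse neuroblastoma. They were chosen by name: Lin28b, Trim71, Hmga2, Igf2bp1, Igf2bp2, Igf2bp3, Drosha, Dgcr8, Dicer1 and Ago2. All 10 were among the 52661 genes of the expression table, and 177 of their splicing events were among the 220976 events with at least 10 reads in every library. Ago2 is listed in the splicing table under its older symbol Eif2c2, and its 21 events are included in the 177. The series held 11 libraries of polyadenylated RNA, taken 48 h after transfection of siRNA pools. The pools targeted Khsrp (2 libraries), Fubp1 (2), Khsrp and Fubp1 together (the double knockdown, 2) or Rbm38 (2), or were non-targeting (siNT, 3). All groups share the N2A background and the transfection, the pools reduce a gene without deleting it, and no label says that replicates came from separate cultures, so p-values may measure technical spread only.

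MicroRNAs are cut in 2 steps. Drosha, an RNase III enzyme held by its RNA-binding partner Dgcr8, releases a hairpin in the nucleus, and Dicer1 trims the hairpin to the mature form that Ago2 carries to target mRNAs. The let-7 family represses fetal and proliferative genes such as Hmga2 and the Igf2bp genes. Lin28 proteins bind let-7 precursors and block their maturation, while the KHSRP protein, which binds a G-rich run in the loop of let-7 precursors, promotes it. Trim71 is a conserved let-7 target that encodes an RNA-binding ubiquitin ligase of stem and progenitor cells. Polyadenylated mRNA was measured here, so mature let-7 itself was not.

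The mature let-7 sequences are shown because all 9 forms listed by RefSeq (GRCm38) share a seed, bases 2 to 8 from the 5′ end, in capitals.
mmu-let-7a-5p: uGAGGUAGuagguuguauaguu
mmu-let-7e-5p: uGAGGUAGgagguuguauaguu
mmu-let-7i-5p: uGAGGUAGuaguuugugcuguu
mmu-miR-98-5p: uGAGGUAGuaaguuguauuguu
The genes of let-7a lie on chromosomes 13 and 9, and those of the other 3 forms on 17, 10 and X.

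Precursor-binding proteins act between the arms of the hairpins. Of the pair of RefSeq hairpins shown, Mirlet7a-1 holds GGAG, the motif known to bind Lin28, between its arms (in capitals), and Mirlet7b does not.
Mirlet7a-1: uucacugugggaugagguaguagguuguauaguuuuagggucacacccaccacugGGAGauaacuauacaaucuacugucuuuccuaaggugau
Mirlet7b: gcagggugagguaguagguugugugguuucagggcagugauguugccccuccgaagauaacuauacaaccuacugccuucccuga
Between the arms 9 of the 12 family hairpins held GGAG and 11 held GGG. Of 50 other mouse hairpins with 23 to 36 bases between their arms, 14.0% held GGAG and 42.0% held GGG.

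The 3′ UTRs of the targets carry matches to that seed. The 8mer CTACCTCA (the complement of the seed followed by A, sense strand only) occurred 12 times in 7 of the 10 genes, against 2.63% of 21677 genes with a coding transcript in GENCODE M21 (GRCm38). Long 3′ UTRs hold more: 7.66% of genes near 4000 nt and 11.8% of those near 6000 nt had the 8mer. Known let-7 targets are among the 10 genes by choice, so a share above that of all genes is built into the choice. The first 8mer after the stop codon of each gene is shown, in capitals.
Lin28b (chr10:45381011-45381040, minus strand): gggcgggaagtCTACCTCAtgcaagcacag
Trim71 (chr9:114512461-114512490, minus strand): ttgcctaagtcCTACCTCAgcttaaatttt
Hmga2 (chr10:120364213-120364242, minus strand): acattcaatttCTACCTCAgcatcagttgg
Igf2bp1 (chr11:95961767-95961796, minus strand): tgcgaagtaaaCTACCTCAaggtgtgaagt
Igf2bp2 (chr16:22059462-22059491, minus strand): acaaataaaagCTACCTCAggtgtttttta
Igf2bp3 (chr6:49086776-49086805, minus strand): tttttactcaaCTACCTCAggtattcagta
Ago2 (chr15:73097971-73098000, minus strand): acaatgtggatCTACCTCAgttaaacagtt
Trim71 had 4 such sites, Igf2bp1 had 3 and the other 5 genes 1 each. Drosha, Dgcr8 and Dicer1 had none, nor a 7-base match. A match is a sequence feature and does not show repression in these cells.

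**Figure D1:**
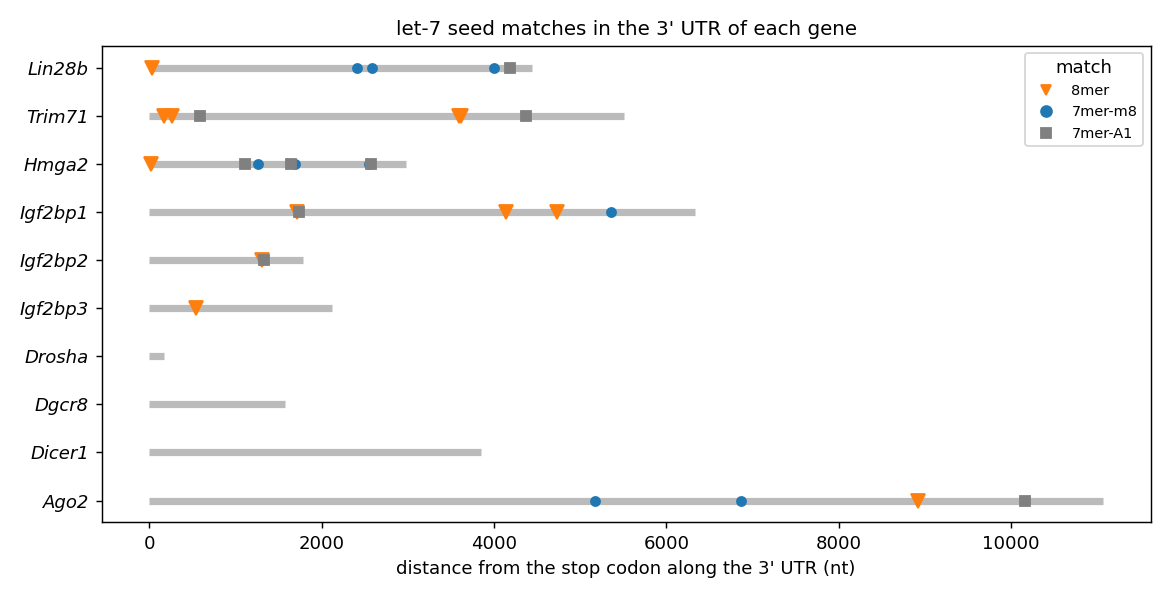
Positions of let-7 seed matches along the 3′ UTR of each gene (horizontal axis, distance from the stop codon in nt; grey bars give the length of the 3′ UTR). Triangles are 8mers, circles and squares the 7-base matches without the final A or without the pairing of base 8. Trim71 has 4 8mers, and Drosha, Dgcr8 and Dicer1 have no match.

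N2A identity and the knockdowns were checked first. Of 13 neuroblastoma markers 12 were at 1 RPKM or more in every group, and no marker list of another cell type summed to more than 3.97 RPKM. Khsrp was at 8.06 RPKM after its own knockdown and 6.77 in the double, against 47.03 in siNT. Fubp1 was at 27.89 RPKM after its own knockdown and 19.82 in the double, against 180.07 in siNT. Rbm38 was at 4.03 RPKM after its knockdown, against 34.47 in siNT. In the Rbm38 knockdown Khsrp was also lower, at 33.8 RPKM, with a log2 fold change of -0.70 (FDR 0.0243) in the authors' deposited table.

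Expression came as 1 authors' RPKM per group, with no value per library, so levels carry no error. In bulk RNA, fewer cells with a transcript and less of it per cell cannot be told apart. A gene is called changed where the authors' FDR (edgeR, knockdown against siNT) was under 0.05. Of the 10 genes, 1 was higher and 1 lower after Khsrp knockdown, where the authors' deposited table calls 8.16% of the 23378 tested genes (3.82% higher, 4.34% lower). After Fubp1 knockdown 0 were higher and 2 lower, against 22.5% of all genes (12.0% higher, 10.5% lower) in the authors' deposited table. In the double knockdown 2 were higher and 3 lower, against 26.8% of all genes (13.2% higher, 13.7% lower) in the authors' deposited table. In the Rbm38 knockdown 1 was higher and 3 lower, against 15.0% of all genes (7.96% higher, 7.02% lower) in the authors' deposited table. The median log2 fold change over the 10 genes was -0.12, -0.21, -0.27 and -0.33 in that order, while over all tested genes of the authors' deposited table it lay between -0.003 and 0.023. The 4 comparisons share the siNT libraries.

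**Figure D2:**
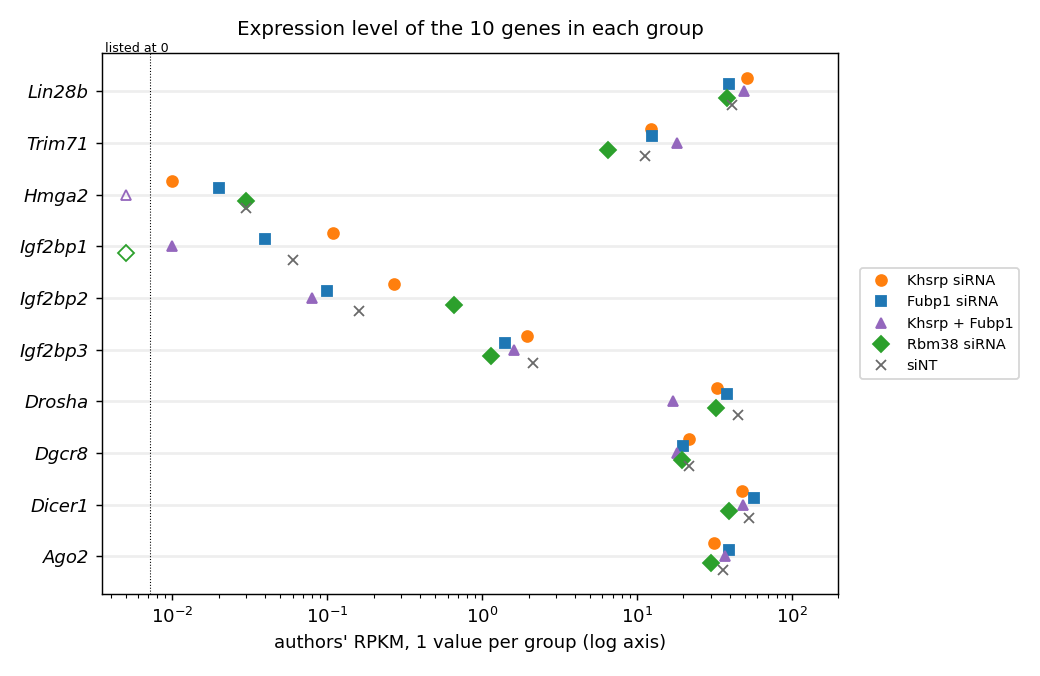
Authors' RPKM of the 10 genes (horizontal log axis; 1 value per group, no error available), with the 4 knockdowns and siNT as symbols. Open symbols on the left are listed at 0. Lin28b, Drosha, Dgcr8, Dicer1 and Ago2 sit between 17.22 and 57.08 RPKM in every group, while Hmga2, Igf2bp1 and Igf2bp2 stay below 1 RPKM.

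Lin28b, whose protein blocks let-7 maturation and whose mRNA is itself a let-7 target, was well expressed in every group. Its level was 51.38 RPKM in the Khsrp knockdown, 39.32 in the Fubp1 knockdown, 49.45 in the double and 38.0 in the Rbm38 knockdown, against 41.38 in siNT. It rose after Khsrp knockdown, with a log2 fold change of 0.54 (FDR 0.000223) in the authors' deposited table, and in the double, with 0.33 (FDR 0.0207). After Khsrp knockdown the log2 ratio of the RPKM values of knockdown and siNT, with 0.1 added to both, was smaller, at 0.31. The log2 fold changes of -0.08 (FDR 0.768) in the Fubp1 and -0.01 (FDR 1) in the Rbm38 knockdown of the authors' deposited table were not called.

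The reads of the splicing table give a view of single libraries: the corrected reads over a gene's events per 1000000 reads over all events (event RPM), a measure chosen after the data were seen. A read can count in several events. For Lin28b this was 36.55 and 30.31 in the Khsrp libraries and 51.08 and 25.91 in the double libraries, against 32.43, 24.82 and 25.24 in siNT. Both groups overlapped siNT, and replicate A of the double stood far above replicate B. With 2 libraries against 3, an exact permutation test cannot reach 0.05, so none was run on these reads.

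Trim71 was higher in the double and lower in the Rbm38 knockdown. Its level was 12.26 RPKM in the Khsrp knockdown, 12.52 in the Fubp1 knockdown, 18.16 in the double and 6.52 in the Rbm38 knockdown, against 11.24 in siNT. The log2 fold change was 0.74 (FDR 5.74e-09) in the double and -0.80 (FDR 5.73e-09) in the Rbm38 knockdown in the authors' deposited table. The Khsrp (0.02) and Fubp1 (0.13) values of the authors' deposited table were not called. Over its 4 events, Trim71 had 3.404 and 2.814 event RPM in the Khsrp libraries and 6.202 and 4.887 in the Fubp1 libraries. It had 7.907 and 4.407 in the double libraries and 1.789 and 3.047 in the Rbm38 libraries, against 4.74, 3.622 and 3.151 in siNT. Both Fubp1 libraries lay above all siNT libraries, and the share of all genes separated upward is not given here. The Rbm38 libraries lay below all siNT libraries, which held for 15.2% of 10472 genes, and 1 of the 2 double libraries lay within their range.

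The Igf2bp genes encode mRNA-binding proteins of fetal and tumour cells, and in N2A cells they were low. Igf2bp3 was at 1.94 RPKM in the Khsrp knockdown, 1.41 in the Fubp1 knockdown, 1.62 in the double and 1.15 in the Rbm38 knockdown, against 2.15 in siNT. It fell in 3 of the 4 knockdowns in the authors' deposited table: by 0.59 on the log2 scale after Fubp1 knockdown (FDR 0.0067), by 0.71 in the double (FDR 0.000783) and by 1.04 after Rbm38 knockdown (FDR 1.13e-06). The Khsrp value, -0.48 (FDR 0.0853), was not called in the authors' deposited table. Event RPM of Igf2bp3 averaged 2.40 ± 0.165 in the Rbm38 libraries (SD, n = 2) and 4.40 ± 1.01 in siNT (SD, n = 3), without overlap, which held downward for 15.2% of all genes. The libraries of the other 3 knockdowns overlapped siNT only through siNT C, at 3.29 event RPM, with siNT A and B at 5.265 and 4.653. The Khsrp libraries had 3.307 and 2.928, the Fubp1 libraries 3.665 and 2.89, and the double libraries 3.651 and 2.771.

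Igf2bp2 lay below 1 RPKM throughout, at 0.27 RPKM in the Khsrp knockdown, 0.1 in the Fubp1 knockdown, 0.08 in the double and 0.66 in the Rbm38 knockdown, against 0.16 in siNT. It was lower after Fubp1 knockdown (log2 fold change -1.40, FDR 0.00392) and in the double (-1.25, FDR 0.0181), and higher after Rbm38 knockdown (1.71, FDR 2.71e-06), in the authors' deposited table. These folds rest on levels under 1 RPKM, and RPKM ratios with 0.1 added gave -0.38, -0.53 and 1.55 on the log2 scale. Hmga2, a chromatin protein and a classical let-7 target, was at 0.01 to 0.03 RPKM and listed at 0 in the double. Igf2bp1 was at 0.11 RPKM in the Khsrp knockdown, 0.04 in the Fubp1 knockdown and 0.01 in the double, was listed at 0 in the Rbm38 knockdown, and was at 0.06 in siNT. Neither gene was called in any knockdown in the authors' deposited table, and no event of Hmga2, Igf2bp1 or Igf2bp2 reached 10 reads in every library. Hmga2 and Igf2bp1, with 7 and 5 let-7 matches of 7 or 8 bases in their 3′ UTRs, were at or near 0 in every group. Trim71 and Lin28b, with 6 and 5 such matches, were at 11.24 and 41.38 RPKM in siNT. A link between matches and level was not tested.

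Drosha was called in 3 of the 4 knockdowns, each time lower, with its lowest level in the double. Its level was 32.95 RPKM in the Khsrp knockdown, 38.17 in the Fubp1 knockdown, 17.22 in the double and 32.52 in the Rbm38 knockdown, against 44.99 in siNT. On the log2 scale it fell by 1.52 in the double (FDR 7.92e-14), by 0.56 after Khsrp knockdown (FDR 0.0355) and by 0.59 after Rbm38 knockdown (FDR 0.0124) in the authors' deposited table. The Fubp1 value, -0.17 (FDR 0.603), was not called in the authors' deposited table.

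Reads over the 44 Drosha events were also lowest in the double. They came to 221.0 and 219.9 event RPM in the Khsrp libraries, 269.0 and 260.9 in the Fubp1 libraries, 119.0 and 126.4 in the double libraries and 243.5 and 218.5 in the Rbm38 libraries, against 303.8, 309.9 and 262.4 in siNT. Both double libraries lay far below every other library, and the Khsrp and Rbm38 libraries lay below all siNT libraries. Of the Fubp1 libraries 1 lay within the siNT range. Such separation downward is common: it held for 18.9% of the genes in the Khsrp, 21.9% in the double and 15.2% in the Rbm38 libraries. The log2 ratio of the event reads was -1.25 in the double, -0.41 after Khsrp knockdown and -0.34 after Rbm38 knockdown.

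The genes with the pattern closest to that of Drosha over the authors' 4 log2 fold changes, among 12398 genes with at least 1 RPKM in siNT, were Cacng3, Cep290 and RP24-499C1.4. Their Euclidean distances from Drosha were 0.15, 0.178 and 0.183 in log2 units of the authors' deposited table. Cacng3, a transmembrane regulatory subunit of AMPA receptors, had log2 fold changes of -0.68, -0.23, -1.58 and -0.58 in the Khsrp, Fubp1, double and Rbm38 knockdowns of the authors' deposited table.

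Dgcr8, Dicer1 and Ago2 were called in 0 of the 4 knockdowns in the authors' deposited table. Dgcr8 ranged from 18.1 RPKM in the double to 21.7 in siNT. Dicer1 was at 47.6 RPKM in the Khsrp knockdown, 57.08 in the Fubp1 knockdown, 48.14 in the double and 39.15 in the Rbm38 knockdown, against 53.12 in siNT, and its Rbm38 value of -0.37 had an FDR of 0.0555 in the authors' deposited table. Ago2 was at 31.36 RPKM in the Khsrp knockdown, 39.29 in the Fubp1 knockdown, 37.03 in the double and 30.16 in the Rbm38 knockdown, against 35.81 in siNT. Over the 62 Dicer1 events, event RPM was 267.7 and 262.0 in the Khsrp libraries and 268.7 and 259.8 in the Fubp1 libraries. It was 258.6 and 278.2 in the double libraries and 248.0 and 200.9 in the Rbm38 libraries, against 255.0, 244.0 and 238.0 in siNT. The Khsrp, Fubp1 and double libraries lay above every siNT library, and the share of all genes separated upward is not given here. Against siNT the log2 ratio of these reads was 0.11 after Khsrp knockdown, 0.11 after Fubp1 knockdown and 0.13 in the double. The authors' deposited table has -0.05, -0.03 and -0.24, so there the 2 measures differ in sign for this uncalled gene. In the Rbm38 knockdown both were negative. At an unadjusted p under 0.05 the authors' deposited table has Dgcr8 in the Fubp1 (p = 0.0375) and double (p = 0.0336) knockdowns and Dicer1 in the Rbm38 knockdown (p = 0.00858). The share of all genes at that p is not given here. It cannot be below the 22.5%, 26.8% and 15.0% called by FDR in the Fubp1, double and Rbm38 knockdowns of the authors' deposited table.

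**Figure D3:**
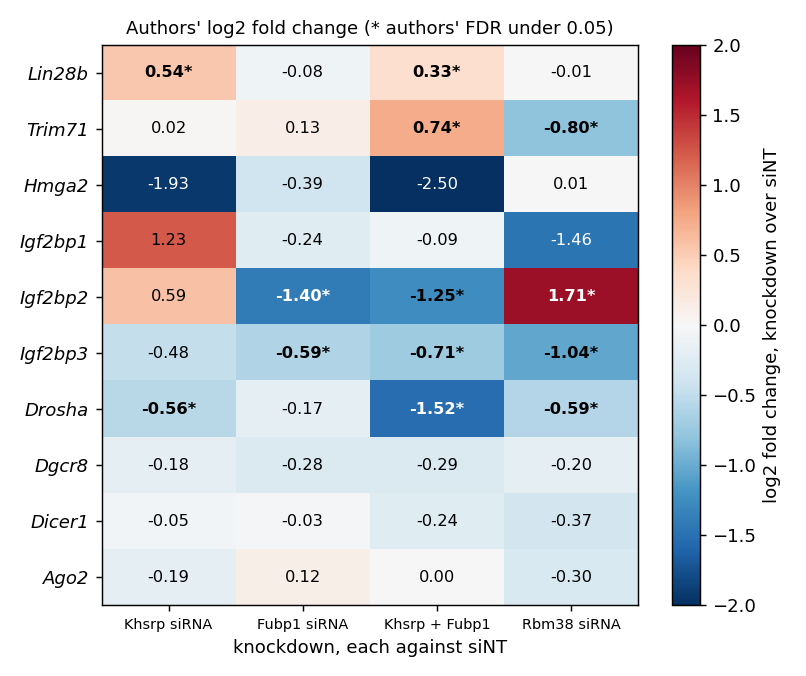
Authors' log2 fold change of each gene (rows) in each knockdown against siNT (columns), with colour from blue (lower) to red (higher) and a star where the authors' FDR was under 0.05. Drosha is starred and lower in 3 knockdowns, most in the double (-1.52), while the large values of Hmga2 and Igf2bp1 rest on levels near 0 and are not starred.

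The wider pathway was read from lists of known genes, some of them members. The counts below stand against 8.16%, 22.5%, 26.8% and 15.0% of all genes called in the Khsrp, Fubp1, double and Rbm38 knockdowns of the authors' deposited table. In nuclear processing and export (9 genes) 0 rose and 1 fell after Khsrp knockdown, 2 rose and 2 fell after Fubp1 knockdown, 1 rose and 4 fell in the double, and 0 rose and 4 fell after Rbm38 knockdown, in the authors' deposited table. Ddx17, an RNA helicase of the Drosha complex, was at 122.38 RPKM after Fubp1 knockdown, against 60.78 in siNT (log2 fold change 1.13, FDR 6.11e-14, in the authors' deposited table). Ran, the GTPase that drives precursor export, was at 411.12 RPKM after Fubp1 knockdown, against 678.48 in siNT (-0.95, FDR 0.0012, in the authors' deposited table). Srrt, which links capped RNA to Drosha, was at 51.92 RPKM in the double, against 76.17 in siNT (-0.64, FDR 3.18e-05, in the authors' deposited table). Xpo5, the precursor exporter, was at 42.17 RPKM after Rbm38 knockdown, against 58.3 in siNT (-0.45, FDR 0.0142, in the authors' deposited table). The list's median log2 fold change was -0.14, -0.19, -0.35 and -0.36 in the Khsrp, Fubp1, double and Rbm38 knockdowns of the authors' deposited table.

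Of Dicer1 and its partners Tarbp2, Prkra and Adar, none was called in any knockdown in the authors' deposited table. In the Argonaute silencing complex (11 genes) 1 rose and 4 fell after Khsrp knockdown, 5 rose and 1 fell after Fubp1 knockdown, 2 rose and 6 fell in the double, and 0 rose and 1 fell after Rbm38 knockdown, in the authors' deposited table. These are 5, 6, 8 and 1 of 11, beside 8.16%, 22.5%, 26.8% and 15.0% of all genes. Ago3, an Argonaute, was at 5.81 RPKM after Khsrp knockdown, 5.38 after Fubp1 knockdown and 5.09 in the double, against 4.33 in siNT. Its log2 fold changes in the authors' deposited table were 0.49 (FDR 0.0315), -0.42 (FDR 0.0466) and -0.76 (FDR 4.9e-05), so after Fubp1 knockdown and in the double it counts as a fall while its RPKM was higher. Such opposite signs occurred in 0.384% and 0.974% of the genes called in these knockdowns in the authors' deposited table, and in none of the 10 genes where called. Ago1 was at 22.04 RPKM after Fubp1 knockdown and 13.45 in the double, against 9.91 in siNT (1.23, FDR 2.8e-16, and 0.52, FDR 0.00138, in the authors' deposited table). Mov10, an RNA helicase that binds Argonaute, was at 24.84 RPKM after Fubp1 knockdown, against 13.17 in siNT (0.97, FDR 1.76e-05, in the authors' deposited table). Pan3, of the deadenylase that Argonaute recruits, was at 18.53 RPKM after Khsrp knockdown and 15.78 after Rbm38 knockdown, against 25.23 in siNT (-0.59, FDR 0.0145, and -0.75, FDR 0.000417, in the authors' deposited table).

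Among 11 genes that control let-7 precursors, Khsrp itself included, 1 rose and 3 fell after Khsrp knockdown, 0 rose and 3 fell after Fubp1 knockdown, 2 rose and 4 fell in the double, and 1 rose and 4 fell after Rbm38 knockdown, in the authors' deposited table. After Fubp1 knockdown 3 of 11 is near the 22.5% called over all genes. Lin28a, the paralogue of Lin28b, was at 78.59 RPKM after Khsrp knockdown and 71.85 after Rbm38 knockdown, against 116.32 in siNT. It fell in both, by 0.59 (FDR 8.22e-05) and 0.80 (FDR 4.9e-09) on the log2 scale of the authors' deposited table. After Khsrp knockdown the 2 paralogues were thus called in opposite directions. Syncrip, an RNA-binding protein, fell in all 4 knockdowns in the authors' deposited table, by 0.51 after Khsrp knockdown (FDR 0.0176), 0.61 after Fubp1 knockdown (FDR 0.000799), 1.05 in the double (FDR 5.6e-10) and 0.55 after Rbm38 knockdown (FDR 0.0045). Papd4, a nucleotidyltransferase that extends RNA ends, was at 30.77 RPKM after Fubp1 knockdown and 20.68 in the double, against 44.55 in siNT (-0.74, FDR 9.36e-05, and -1.03, FDR 1.31e-08, in the authors' deposited table).

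A list of 30 known let-7 targets held 7 of the 10 genes: Lin28b, Trim71, Hmga2, the Igf2bp genes and Dicer1. These are not the 7 with an 8mer, since Dicer1 had no match and Ago2 was not listed. The 30 targets moved in both directions. After Khsrp knockdown 3 rose and 3 fell, after Fubp1 knockdown 7 and 9, in the double 7 and 8, and after Rbm38 knockdown 3 and 6, by the authors' deposited table, which calls 8.16%, 22.5%, 26.8% and 15.0% of all genes in that order. Their median log2 fold change was 0.00, -0.23, -0.15 and -0.05 in that order, where the median over all tested genes of the authors' deposited table lay between -0.003 and 0.023. Arid3b, a DNA-binding protein, rose in 3 knockdowns in the authors' deposited table, by 0.57 after Khsrp knockdown (FDR 0.0159), 1.16 after Fubp1 knockdown (FDR 4.87e-10) and 0.77 in the double (FDR 7.1e-05). Mycn, the neuroblastoma oncogene, was at 5.77 RPKM in the double, against 13.11 in siNT (log2 fold change -1.21, FDR 4.74e-05, in the authors' deposited table). Of 17 let-7 precursor and host genes 15 were in the table, and Mirlet7a-1 and Mirlet7g were the 2 of 12 precursors with a value above 0. The only call among the 3 tested was Huwe1, lower in the double at 82.7 RPKM, against 131.91 in siNT (-0.70, FDR 0.00469, in the authors' deposited table).

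Splicing was read in each library from the percent spliced in (PSI), which counts reads that include an exon or retain an intron among all reads informative on it. Of the 177 events, 29 had a mean PSI from 1 to 99 and were tested: 7 in Lin28b, 3 in Igf2bp3, 4 in Drosha, 5 in Dgcr8 and 10 in Dicer1. The 21 events of Ago2 and the 4 of Trim71 lay outside that range, and over all 148 untested events group means stood at most 2.84 points from siNT. An event was called at a limma adjusted p under 0.05 over all 60137 tested events with mean PSI at least 10 points apart. Among the 29, 0 were called after Khsrp knockdown, 2 after Fubp1 knockdown, 5 in the double and 0 after Rbm38 knockdown, against 0.0366%, 0.85%, 7.44% and 0.118% of all tested events. At an unadjusted p under 0.05 the numbers were 0, 4, 11 and 5, against 10.9%, 14.8%, 26.8% and 11.2% of all tested events, so the Fubp1 number is near the background. All called events against siNT were exons with lower inclusion, in Dicer1 (3), Drosha (1) and Lin28b (1), while Dgcr8 and Igf2bp3 had none. Most calls over all events were lower too: 383 of 511 after Fubp1 knockdown (0.637% of tested events) and 3302 of 4475 in the double (5.49%). Splice site positions below are matches to GENCODE M21 (GRCm38) by exon and intron length, because the deposited coordinates do not follow that build.

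**Figure D4:**
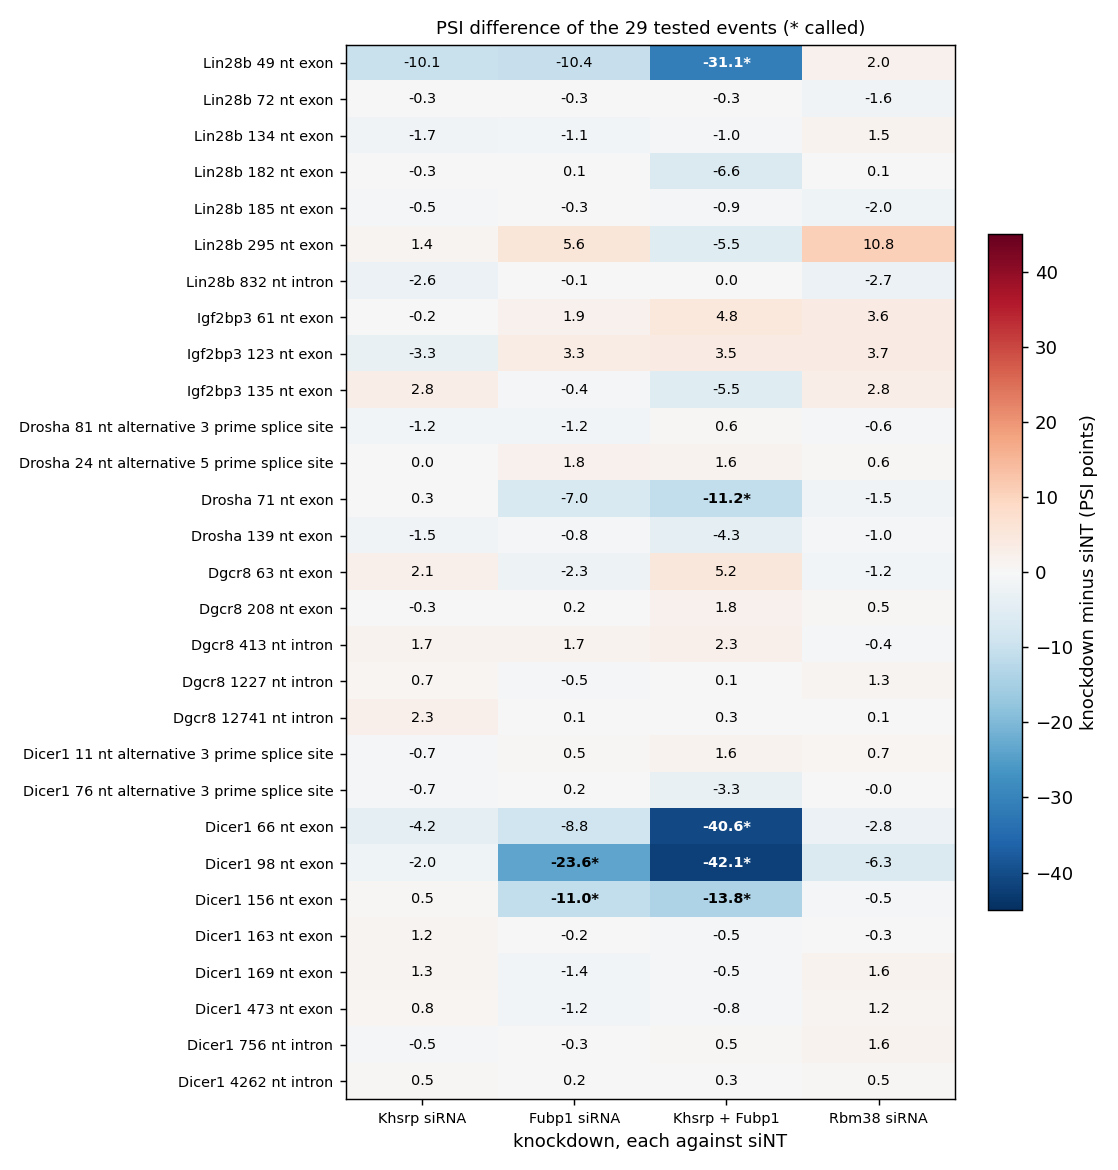
PSI difference from siNT, in points, of the 29 tested events (rows, with gene, length and kind) in each knockdown (columns), from blue (lower inclusion) to red (higher). Stars mark called events. The 5 stars of the double are the Lin28b 49 nt, Drosha 71 nt and Dicer1 66, 98 and 156 nt exons.

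The Dicer1 exon of 156 nt was exon 22 of 27 of Dicer1-201 (chr12:104700365-104700520, minus strand, coding). It is shown in capitals between 20 transcript bases on each side. Skipping it would remove 52 codons in frame, from a region that overlaps the first RNase III domain.
Dicer1 exon 22: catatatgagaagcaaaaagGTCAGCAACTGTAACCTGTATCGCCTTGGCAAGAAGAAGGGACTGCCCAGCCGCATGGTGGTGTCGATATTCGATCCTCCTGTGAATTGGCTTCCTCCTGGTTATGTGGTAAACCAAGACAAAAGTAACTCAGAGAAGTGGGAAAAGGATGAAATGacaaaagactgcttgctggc
Its PSI was 98.8 and 98.9 in the Khsrp libraries, 84.9 and 89.9 in the Fubp1 libraries, 83.1 and 86.0 in the double libraries and 97.7 and 98.0 in the Rbm38 libraries, against 97.1, 99.6 and 98.4 in siNT. Both groups with Fubp1 knocked down lay below every other library. The share of all tested events with libraries so separated is not given, here or for the exons below. The difference from siNT was -10.98 points after Fubp1 knockdown (limma adjusted p = 0.00274) and -13.84 points in the double (limma adjusted p = 6.1e-05), and that of the double from the Khsrp knockdown was -14.31 points (limma adjusted p = 0.000136). Between the double and the Fubp1 knockdown the difference was -2.86 points (limma adjusted p = 0.707). Without replicate A of the Fubp1 knockdown its difference from siNT was -8.48 points (limma adjusted p = 0.055). At least 623 reads covered the exon in each library.

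The Drosha exon of 71 nt was exon 26 of 35 of Drosha-207 (chr15:12907324-12907394, plus strand, coding), shown in the same way.
Drosha exon 26: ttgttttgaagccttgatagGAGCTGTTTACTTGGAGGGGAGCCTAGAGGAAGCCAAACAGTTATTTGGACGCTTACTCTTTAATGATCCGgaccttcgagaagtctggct
Skipping shifts the frame after codon 1048 of 1373, so that a stop codon ends 80 nt past the new junction and 698 nt before the last exon junction. The second RNase III domain and the double-stranded RNA-binding domain are encoded further downstream. Its PSI was 99.3 and 99.8 in the Khsrp libraries, 92.8 and 91.6 in the Fubp1 libraries, 88.0 and 88.0 in the double libraries and 97.1 and 98.4 in the Rbm38 libraries, against 99.5, 98.5 and 99.7 in siNT. The order of the groups was siNT and Khsrp highest, then Rbm38, Fubp1 and the double, with no overlap between the Fubp1, double and siNT libraries. The difference was -11.21 points in the double (limma adjusted p = 1.73e-05) and -7.02 points after Fubp1 knockdown (limma adjusted p = 0.00124), the second short of the 10 points required. The double differed from the Khsrp knockdown by -11.48 points (limma adjusted p = 0.000239) and from the Fubp1 knockdown by -4.19 points (limma adjusted p = 0.394). The double libraries, where Drosha was lowest, had 376 and 362 reads here, against 1276 to 2035 in siNT.

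Upstream of the Dicer1 start codon 2 alternative exons had the largest differences of the 29 events in the double. The 98 nt exon was exon 2 of Dicer1-203, in the 5′ UTR (chr12:104737769-104737866, minus strand). Its PSI was 88.9 and 83.8 in the Khsrp libraries, 62.8 and 66.8 in the Fubp1 libraries, 43.7 and 48.7 in the double libraries and 82.3 and 81.8 in the Rbm38 libraries, against 84.4, 87.9 and 92.8 in siNT. Fubp1 libraries lay below all siNT libraries, and double libraries below all Fubp1 libraries. The difference from siNT was -23.59 points after Fubp1 knockdown (limma adjusted p = 0.0052) and -42.14 points in the double (limma adjusted p = 6.97e-06). Between the double and the Fubp1 knockdown it was -18.55 points (limma adjusted p = 0.0774), and between the double and the Khsrp knockdown -40.17 points (limma adjusted p = 0.000147). Without replicate A or B of the Fubp1 knockdown, its difference from siNT was -21.59 (limma adjusted p = 0.0882) or -25.59 points (limma adjusted p = 0.057).

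The 66 nt exon had no match in GENCODE M21, but the junction that skips it had the length of the first intron of Dicer1-201. Its PSI was 95.6 and 84.8 in the Khsrp libraries, 84.6 and 86.4 in the Fubp1 libraries, 52.4 and 55.0 in the double libraries and 93.3 and 89.8 in the Rbm38 libraries, against 92.0, 94.3 and 96.7 in siNT. Both double libraries lay far below all other libraries. Their mean differed by -40.6 points from siNT (limma adjusted p = 1.17e-05), by -36.45 from the Khsrp knockdown (limma adjusted p = 0.00117) and by -31.81 from the Fubp1 knockdown (limma adjusted p = 0.00211). The difference of the Fubp1 knockdown from siNT, -8.79 points, had a limma adjusted p of 0.167. Without replicate A of the Khsrp knockdown the difference between the double and the Khsrp knockdown was -31.06 points (limma adjusted p = 0.0548). The 66 and 98 nt exons join the same downstream exon, so they are not independent measures.

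In Lin28b the 49 nt exon matched exon 2 of Lin28b-202, a noncoding transcript (chr10:45476348-45476396, minus strand), by its length and only 1 flanking intron. The junction that skips it had the length of an intron of Lin28b-203. Its PSI was 78.6 and 68.8 in the Khsrp libraries, 74.3 and 72.6 in the Fubp1 libraries, 40.3 and 65.2 in the double libraries and 93.7 and 78.1 in the Rbm38 libraries, against 83.2, 83.7 and 84.6 in siNT. The 2 double libraries were the lowest but stood far apart from each other. The difference of the double from siNT was -31.09 points (limma adjusted p = 0.00115), and without its replicate A -18.62 points (limma adjusted p = 0.19). The Khsrp (-10.13 points, limma adjusted p = 0.527) and Fubp1 (-10.4 points, limma adjusted p = 0.377) differences were not called, and the first was -15.0 or -5.25 points without Khsrp replicate A or B.

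A Lin28b exon of 295 nt, unmatched in GENCODE M21, had a PSI of 16.2 and 16.4 in the Khsrp libraries, 18.7 and 22.4 in the Fubp1 libraries, 5.5 and 13.4 in the double libraries and 33.3 and 18.3 in the Rbm38 libraries, against 12.4, 18.3 and 14.1 in siNT. The double differed by -11.08 points from the Fubp1 knockdown (limma adjusted p = 0.0435) and by -5.5 points from siNT (limma adjusted p = 0.128), or -1.53 and -9.46 points without replicate A or B of the double. The Rbm38 difference, 10.85 points (limma adjusted p = 0.377), was not called and was 3.31 or 18.39 points without its replicate A or B. The first call was lost without any 1 library of the Fubp1 or Khsrp knockdown and without replicate A of the double (-7.11 points, limma adjusted p = 0.697). The coding exon 2 of Lin28b (182 nt), named after its values were seen, had a PSI of 90.5 and 94.2 in the double libraries, against 98.4, 99.7 and 98.7 in siNT, a difference of -6.58 points (limma adjusted p = 0.00139) that missed the 10 points required.

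**Figure D5:**
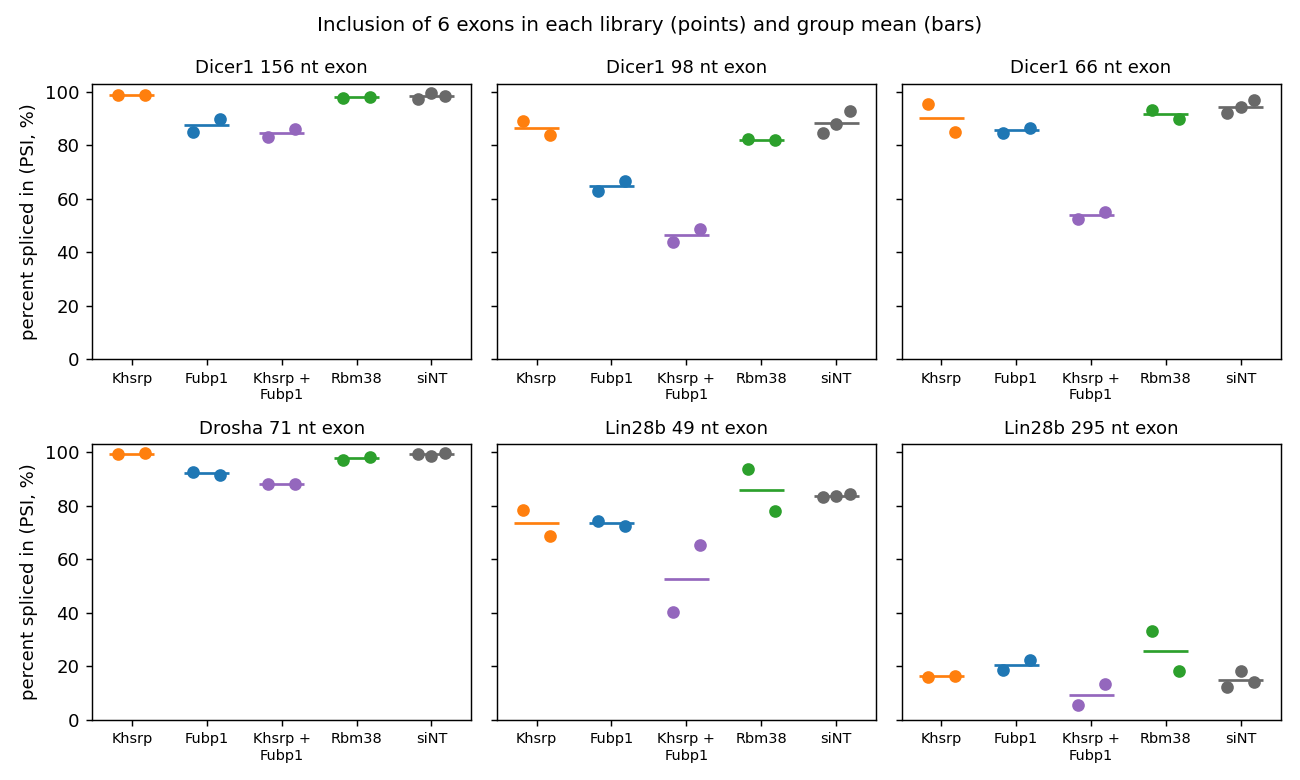
PSI in percent (vertical axis) of 6 exons in each of the 11 libraries (points) with group means (bars), for the 4 knockdowns and siNT. In the double knockdown the Dicer1 66 and 98 nt exons lie between 43.7 and 55.0, and the Drosha 71 nt exon at 88.0 in both libraries.

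The exons nearest to a PSI of 50 in the other genes with a tested event were not called. The Dgcr8 63 nt exon averaged 6.67 ± 2.55 in the Khsrp, 2.25 ± 0.66 in the Fubp1, 9.67 ± 3.89 in the double and 3.36 ± 0.4 in the Rbm38 knockdown (SD, n = 2 each), and 4.52 ± 1.61 in siNT (SD, n = 3). Its double value was 5.15 points above siNT (limma adjusted p = 0.129), and 2.4 or 7.9 points above without replicate A or B of the double. The Igf2bp3 61 nt exon, with as few as 17 reads in a library, averaged 97.6 ± 3.46 in the double (SD, n = 2) and 92.7 ± 3.26 in siNT (SD, n = 3).

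Compared directly, the double knockdown had 4 of the 29 events called against the Khsrp knockdown and 2 against the Fubp1 knockdown, all lower in the double, where 4.89% and 4.17% of all tested events were called (3.82% and 3.1% lower). Between the Khsrp and the Fubp1 knockdown 2 were called, both higher in Khsrp: the Dicer1 156 nt exon, by 11.46 points (limma adjusted p = 0.00381), and the Dicer1 98 nt exon, by 21.62 points (limma adjusted p = 0.037), where 0.64% of all tested events were called (0.412% higher). The first was lost without Fubp1 replicate A, Khsrp replicate A or Khsrp replicate B, and the second without any 1 library of the Khsrp, Fubp1 or double knockdown, with limma adjusted p of up to 0.121 and 0.318. By their titles the 2 Fubp1 libraries and siNT A and B carry numbers from 1 to 4 and all others from 8 to 27, so comparisons of Fubp1 with Khsrp or the double run across these library sets. With a term for the set, the calls between the Fubp1 knockdown and the other 2 knockdowns were lost, the Dicer1 66 nt exon at -35.41 points (limma adjusted p = 0.233). Within the sets, the Fubp1 knockdown differed from siNT A and B by -10.98 points at the Dicer1 156 nt exon and by -21.38 points at the 98 nt exon. Against siNT C alone the double differed by -13.84 points at the 156 nt exon, -46.57 at the 98 nt exon, -43.0 at the 66 nt exon, -11.66 at the Drosha exon and -31.87 at the Lin28b 49 nt exon. The authors' expression values are 1 per group, so the sets could not be compared in them. Event RPM of Ago2 was 86.43 and 83.11 in siNT A and B and 54.39 in siNT C. In the other libraries numbered 8 to 27 it was 58.87 and 54.94 (Khsrp), 62.43 and 55.81 (Rbm38) and 84.17 and 69.5 (double). For Dgcr8, siNT C (63.01) lay between siNT A (63.77) and siNT B (52.82). The part of the set in expression was not tested.

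The authors' own calls of splicing change cover 148 of the 177 events. They mark 0 after Khsrp knockdown, 5 after Fubp1 knockdown, 6 in the double and 0 after Rbm38 knockdown in the authors' deposited table. Over the 190227 events with 10 reads in every library that the authors' deposited table covers, the shares marked were 0.594%, 1.31%, 3.96% and 0.658%. The sources used here do not state the criterion. Marked in both the Fubp1 and the double knockdown of the authors' deposited table were the 3 Dicer1 exons, the Drosha exon and the Lin28b 49 nt exon. The Lin28b 182 nt exon was marked in the double in the authors' deposited table.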

How the data were processed

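The authors deposited 1 RPKM value per group for 52661 genes, with their log2 fold change, p-value and FDR of each knockdown against siNT for 23378 genes. The submitters' processing notes name mm10, Salmon 0.14.1 and edgeR. No values per library came with that table, so no expression model was fitted and the authors' FDR is the call. The deposited splicing table, in vast-tools layout, gives PSI as a percent per library and, in a quality text, corrected reads for and against inclusion, from which PSI could be recomputed within 0.05 points. The sources used here give no genome build for it. A further table deposited by the authors holds a PSI score per group, not used here, and True or False calls, which were copied.

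Events with 10 or more reads in every library and a mean PSI from 1 to 99 (60137) were fitted in limma 3.58.1 (R 4.3.3). The response was log2 odds of inclusion (0.5 added to both read numbers). Weights combined the binomial variance with a between-library variance of 0.0807, and each group had 1 mean over all 11 libraries. p-values were adjusted by Benjamini-Hochberg over all tested events. Median reads per tested event were 99 to 221 per library. On simulated data at this depth 69 to 77 of 100 events changed by 30 points were called per knockdown, 4 to 13 of 100 changed by 15 points, and at most 1 unchanged event. Alternatives covered thresholds, weights, filters, the library set, the replicate letter and each library left out.

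Seed matches were searched in the 3′ UTR of 1 coding transcript per gene (GENCODE M21), and microRNA sequences are from RefSeq (GRCm38.p6). The text names the 10 genes, every called event, per gene the exon with mean PSI nearest to 50, and examples from the up to 4 called genes with the largest fold change per list and knockdown, except that some genes are not reported here. Members and lists were chosen with earlier results of these data known. Replicate letters follow the descriptions, since both Fubp1 titles end in A. Counting error and library spread are covered. Precision below 15 points is low for events with a mean PSI near 50, and was not simulated for others.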

Additional observations from a re-analysis of the deposited data

How the results depend on the processing

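The Dicer1 156, 98 and 66 nt and Drosha 71 nt exon calls of the double knockdown against siNT held under all 19 alternatives, and the Lin28b 49 nt call under 18. The alternatives are not independent checks. Dropping the minimum PSI difference cannot lose a call, and the replicate block repeats the PSI differences found without siNT replicate C. Fewer members were called at an authors' FDR under 0.01 (1 gene for Khsrp, 3 for the double), with an absolute log2 fold change of at least 1 (0 for Khsrp, 1 for Fubp1, 2 for the double, 2 for Rbm38), and for Fubp1 among genes with siNT RPKM of at least 1 (1). Without weights, 0 events were called for Fubp1 against siNT, 0 for the double against Fubp1 and 0 for Khsrp against Fubp1. With no limit on mean PSI these counts were 0, 1 and 0, where more events were adjusted for. With a library set term, 0 were called for the double and 0 for Khsrp against Fubp1. Binomial weights only called 4 for the double against Fubp1. Leaving out 1 library gave 0 to 2 calls for Fubp1 against siNT, 1 to 3 for the double against Fubp1 and 0 to 2 for Khsrp against Fubp1. The replicate letters did not pair samples (correlations of A minus B differences from -0.062 to 0.058). The replicate block gave 2 calls for Fubp1, 5 for the double, 5 for the double against Khsrp and 3 against Fubp1. Letter C occurs only in siNT, so the block takes siNT C, the only siNT library of the later set, out of these comparisons. Differences near 0 that were never called changed sign. With 1 library left out, the Khsrp difference from siNT ranged from -0.14 to 1.09 points at the Dicer1 156 nt exon, -9.54 to 1.24 at the 66 nt exon, -4.53 to 0.59 at the 98 nt exon, -0.08 to 0.52 at the Drosha exon and -1.99 to 1.22 at the Igf2bp3 61 nt exon. The Rbm38 difference ranged from -1.08 to 0.15 at the Dicer1 156 nt exon, -0.07 to 7.27 at the Igf2bp3 exon and -5.75 to 9.84 at the Lin28b 49 nt exon, and the Fubp1 difference from -3.54 to 7.27 at the Igf2bp3 exon. The Khsrp difference was 0.24 at the Dicer1 98 nt and 1.22 at the Igf2bp3 exon with the replicate block, and -0.18 at the Drosha exon with the set term. Where not stated, the cause was not tested. A library left alone in its group was assumed to vary like the others. RPKM ratios with pseudocounts of 0.1 or 1 reversed none of the 13 called fold changes of the 10 genes, but moved 4 and 7 of them by over 1.5 times, all towards 0. With 0.1, Lin28b was at 0.31 after Khsrp knockdown, Igf2bp3 at -0.39 in the double, and Igf2bp2 at -0.38 after Fubp1 knockdown and -0.53 in the double. With 1, Igf2bp3 was also at -0.39 after Fubp1 and -0.55 after Rbm38 knockdown, and Igf2bp2 at 0.52 after Rbm38 knockdown. The Lin28b value after Khsrp knockdown was 0.31 with either pseudocount, against 0.54 in the authors' deposited table. There the authors' RPKM and log2 fold change themselves differed. Event RPM, an alternative chosen after the data were seen, had the sign of the authors' log2 fold change in 10 of the 10 called pairs of a gene and a knockdown, and in 21 of all 28.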
